A study of Mus musculus with 27 samples.

Results

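The comparison described here is that of combustion products with saline in lungs that, by their labels, were not given the allergen of the study. Its members are the 14 of 27 whole-lung libraries whose labels end in PBS/CP (7 mice) or PBS/SAL (7 mice), and a library is called by its group together with the number that opens its label. All mice were wild-type C57Bl/6 males, 7 to 8 weeks old, and every mouse of both groups had 50 µl of phosphate-buffered saline (PBS) instilled by the oropharyngeal route 5 times. A day after the last of these, PBS_CP mice were given 200 µg of combustion products (CP, made by burning a mixture of plywood, paper and plastic) in 100 µl of saline, PBS_SAL mice were given the saline alone, and lungs were collected after 24 h. HDM_CP (n = 7) and HDM_SAL (n = 6) mice, used for comparison at the end, had house dust mite extract (HDM, 10 µg each time) in place of PBS. The labels do not say whether the mice were treated on separate days, and a whole lung cannot tell fewer cells of a type from less RNA per cell.

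Smoke from burned plastic, paper and wood carries polycyclic aromatic hydrocarbons, which bind the aryl hydrocarbon receptor, a transcription factor held in the cytoplasm by heat shock chaperones. The bound receptor enters the nucleus, pairs with Arnt and switches on cytochrome P450 genes such as Cyp1a1 and Cyp1b1, whose enzymes oxidise the ligands, and Ahrr, a repressor that closes the loop. Electrophiles and oxidants act through a second factor, Nrf2, which raises enzymes of glutathione synthesis and quinone reduction. In the lung, epithelial, endothelial and myeloid cells can each mount these responses.

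Depth and tissue content were compared first. Sums of the deposited estimated counts ranged between 56.5 M and 74.0 M (M, mega) in PBS_CP and between 56.3 M and 77.2 M in PBS_SAL, and the group means differed by -0.171 M (exact permutation test, two-sided, p = 0.978). Mitochondrial genes held 2.39 ± 0.23% of the counts in PBS_CP and 2.29 ± 0.14% in PBS_SAL (SD, n = 7 each, exact permutation test, p = 0.346). PBS_CP 102, PBS_SAL 104 and PBS_SAL 105 had under 60 M counts, and PBS_CP 102 had the largest share in ribosomal RNA genes among the 14 PBS libraries, 0.369%. Library numbers fall into 3 runs. Libraries 45 to 64 hold 3 PBS_CP and 2 PBS_SAL, and libraries 66 to 81 hold 2 and 3. The last run, 96 to 105, holds 2 and 2, with all 3 libraries under 60 M among them. Leaving those out keeps only PBS_CP 101 of its PBS libraries, so depth and run cannot be told apart there. Differences within a run are given without a spread. The 7 lung identity genes, such as surfactant protein genes, summed to between 32030 and 39100 counts per M (CPM) in PBS_CP and between 32320 and 38800 CPM in PBS_SAL. Skeletal muscle genes summed to at most 8.32 CPM in PBS_CP and 12.4 CPM in PBS_SAL, and heart muscle genes to at most 264 CPM in PBS_CP (library 102) and 141 CPM in PBS_SAL.

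One library went against its label for part of an allergen response. PBS_CP 57 carried some genes of that response, although its label gives PBS. Clca1, a secreted regulator of airway mucus, stood at 515 CPM in PBS_CP 57, between 4.10 and 11.1 CPM in the 6 other PBS_CP libraries and between 4.34 and 11.9 CPM in PBS_SAL. In HDM mice Clca1 ranged between 71.2 and 1443 CPM with CP and between 46.4 and 2647 CPM with saline, so PBS_CP 57 lay inside both HDM ranges. The mucin gene Muc5ac was at 42.6 CPM in PBS_CP 57 and at most 3.11 CPM in the other PBS_CP libraries, against at most 3.51 CPM in PBS_SAL. The anion exchanger gene Slc26a4 was at 28.7 CPM in PBS_CP 57 and at most 6.32 CPM in the other PBS_CP libraries. Retnla, a small secreted protein of the type 2 response, reached 1288 CPM in PBS_CP 57, with 54.8 to 241 CPM in the other PBS_CP libraries and 40.1 to 98.5 CPM in PBS_SAL. The chemokine gene Ccl8, at 4.64 CPM, stayed below every HDM library (12.4 CPM or more), and Il13, a type 2 cytokine gene, was at 0.116 CPM in PBS_CP 57, the median of its group. A goblet cell and mucus list summed to 919 CPM in PBS_CP 57, inside the HDM_CP (396 to 2446 CPM) and HDM_SAL (283 to 4188 CPM) ranges. Its sum of alternative macrophage activation genes, 1840 CPM, lay below every HDM library (2182 CPM or more). So did its sum of type 2 cytokines and chemokines (39.5 CPM, against 43.7 CPM or more). Cyp1a1 in PBS_CP 57, at 254 CPM, was the median of its group. Results that this library moved are given with and without it.

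**Figure D1:**
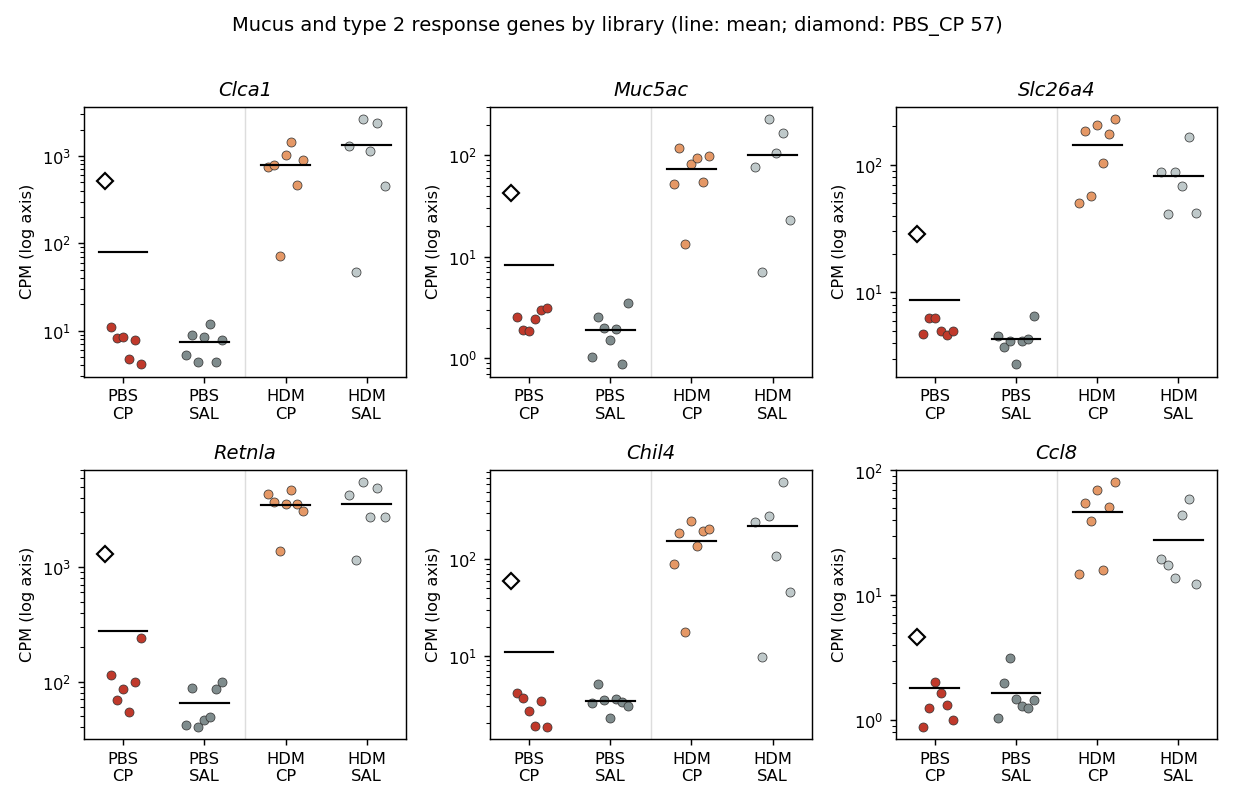
Expression (CPM, log axis) of 6 mucus and type 2 response genes in each library of the PBS_CP, PBS_SAL, HDM_CP and HDM_SAL groups, with the group mean as a line and PBS_CP 57 as an open diamond. PBS_CP 57 lies above all other PBS libraries for each gene, and for Clca1 (515 CPM) inside the range of the HDM libraries.

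Differences between PBS_CP and PBS_SAL passed the threshold for few genes. Of 24629 genes tested with edgeR's quasi-likelihood test and Benjamini-Hochberg adjustment over all of them, 2 rose in PBS_CP (0.00812%) and 0 fell. The 2 were Apol7c and Cyp1a1. Without PBS_CP 57, 2 of 24582 rose (0.00814%), again Apol7c and Cyp1a1. At an unadjusted p under 0.05, 718 genes were higher in PBS_CP (2.92%) and 625 lower (2.54%), 1343 in all (5.45%), and without PBS_CP 57 the counts were 577 (2.35%) and 510 (2.07%). Those shares are the background against which the members of each gene list are counted. Fold changes are log2 values with their standard error, and those without an adjusted p beside them did not pass. All 7 PBS_CP values lay above all 7 PBS_SAL values for 15 genes (0.0609%) and below them for 34 (0.138%), and without PBS_CP 57 for 21 (0.0853%) and 40 (0.162%). DESeq2 called 13 genes higher and 19 lower, and without PBS_CP 57 it called 10 and 9. Of the genes described here, it called Cyp1b1, Nqo1, Idi1, Adamts9, Has2, Zbtb16, Ciart, Hif3a, Tox2, Pik3ip1, Ighg2b and Ighg2c beside Apol7c and Cyp1a1. Without PBS_CP 57 its calls among these were Cyp1b1, Nqo1, Zbtb16, Tox2, Apol7c and Cyp1a1. The fit of the 2 PBS groups alone called Klk13 and Azin1 (adjusted p = 0.0479 each), Apol7c and Cyp1b1, and without PBS_CP 57 it called Apol7c and Cyp1b1. Limma voom called 1 gene higher, Apol7c, and 9 lower, among them Zbtb16, Ciart, Tox2 and Pik3ip1, and 0 without PBS_CP 57.

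Cyp1a1 (chr9:57595211-57611107, GRCm39), which encodes the cytochrome P450 that oxidises polycyclic hydrocarbons, had the largest fold change among the named targets of the receptor. Its level was 41.4 CPM in the lowest, 254 in the median and 1028 in the highest PBS_CP library, against 16.7, 26.6 and 33.7 CPM in PBS_SAL. Every PBS_CP library lay above every PBS_SAL library, yet PBS_CP 58, the lowest, was near the saline range and PBS_CP 102 was far above it. Cyp1a1 rose by 3.87 ± 0.62 on the log2 scale (SE, edgeR adjusted p = 0.0279), and by 3.94 ± 0.64 without PBS_CP 57 (adjusted p = 0.0397). The call was lost when PBS_CP 76, 101 or 102 was left out, with an adjusted p of 0.0575, 0.0558 and 0.071. It was also lost when PBS_SAL 61, 64, 79, 80, 81 or 104 was left out, with adjusted p between 0.101 and 0.128. Without the 3 libraries under 60 M its fold change was 3.50 ± 0.68 (adjusted p = 0.165). Cyp1a1 passed with the median-of-ratios and upper quartile factors and with DESeq2. It did not pass with no filter on low counts (adjusted p = 0.0506), limma voom (0.0759), only the 2 PBS groups (0.0762) or log2(TPM + 1), with a filter (0.0543) or without (0.0789).

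Cyp1b1, the related cytochrome P450 of extrahepatic tissue, had a narrower range among exposed mice. It ranged between 29.5 and 105 CPM in PBS_CP with a median of 57.3 CPM, against 9.44 to 13.5 CPM with a median of 10.9 CPM in PBS_SAL, and the groups did not overlap. Its fold change of 2.49 ± 0.45, or 2.45 ± 0.47 without PBS_CP 57, did not pass in the fit of all 4 groups (adjusted p = 0.0989 and 0.173), while DESeq2 called it (adjusted p = 5.28e-05), as did the fit of the 2 PBS groups alone (adjusted p = 0.00191). Cyp1a2, the liver member of the family, was near the detection limit, with 0 to 0.920 CPM in PBS_CP (median 0.566) and 0 to 0.274 CPM in PBS_SAL (median 0).

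For 3 further enzymes of the pathway PBS_CP 76 had the highest value. Nqo1, a quinone reductase that answers to both the aryl hydrocarbon receptor and Nrf2, had 8.15, 14.1 and 34.4 CPM in the lowest, median and highest PBS_CP library and 5.13, 7.06 and 9.09 CPM in PBS_SAL. Only PBS_CP 58 reached into the PBS_SAL range. Its fold change of 1.22 ± 0.28 (1.25 ± 0.29 without PBS_CP 57) did not pass (adjusted p = 0.224), and was 0.92 without PBS_CP 76, the highest library. Aldh3a1, an aldehyde dehydrogenase, stood at 38.9 CPM in PBS_CP 76 with a PBS_CP median of 12.8 CPM, against a PBS_SAL median of 8.11 CPM and maximum of 12.6 CPM. Its fold change of 0.84 ± 0.27 was 0.46 without PBS_CP 76. Ugt1a6a, a glucuronosyltransferase, was highest there too, with 68.8 CPM in PBS_CP 76 and a fold change of 0.35 ± 0.16, or 0.20 without that library.

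The repressor and sensor genes of the pathway had small fold changes. Ahrr had a median of 0.924 CPM in PBS_CP and 0.539 CPM in PBS_SAL (fold change 0.65 ± 0.36, adjusted p = 0.977), and Tiparp, a receptor-induced ADP-ribosyltransferase, had medians of 46.3 CPM in PBS_CP and 43.9 CPM in PBS_SAL (0.09 ± 0.06). On the deposited transcripts per M (TPM), which correct for length, the receptor gene Ahr ranged between 46.2 and 69.1 TPM in PBS_CP and between 50.6 and 63.3 TPM in PBS_SAL. Its partner Arnt ranged between 57.3 and 68.1 TPM in PBS_CP and between 60.2 and 67.7 TPM in PBS_SAL, so the groups overlapped for both. On that scale Cyp1a1 had a median of 204 TPM in PBS_CP and 21.3 TPM in PBS_SAL, Cyp1b1 24.3 TPM in PBS_CP and 4.56 TPM in PBS_SAL, and Nqo1 19.2 TPM in PBS_CP and 9.25 TPM in PBS_SAL. Over the 12 receptor targets, 6 were higher and 0 lower at an unadjusted p under 0.05, 2 did not overlap, and the median fold change was 0.50, or 0.46 without PBS_CP 57, against 0.00 over all genes. Of 9 genes of the receptor's own machinery 1 was higher, the cochaperone gene Ptges3 (0.12 ± 0.05), and 0 were without PBS_CP 57.

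**Figure D2:**
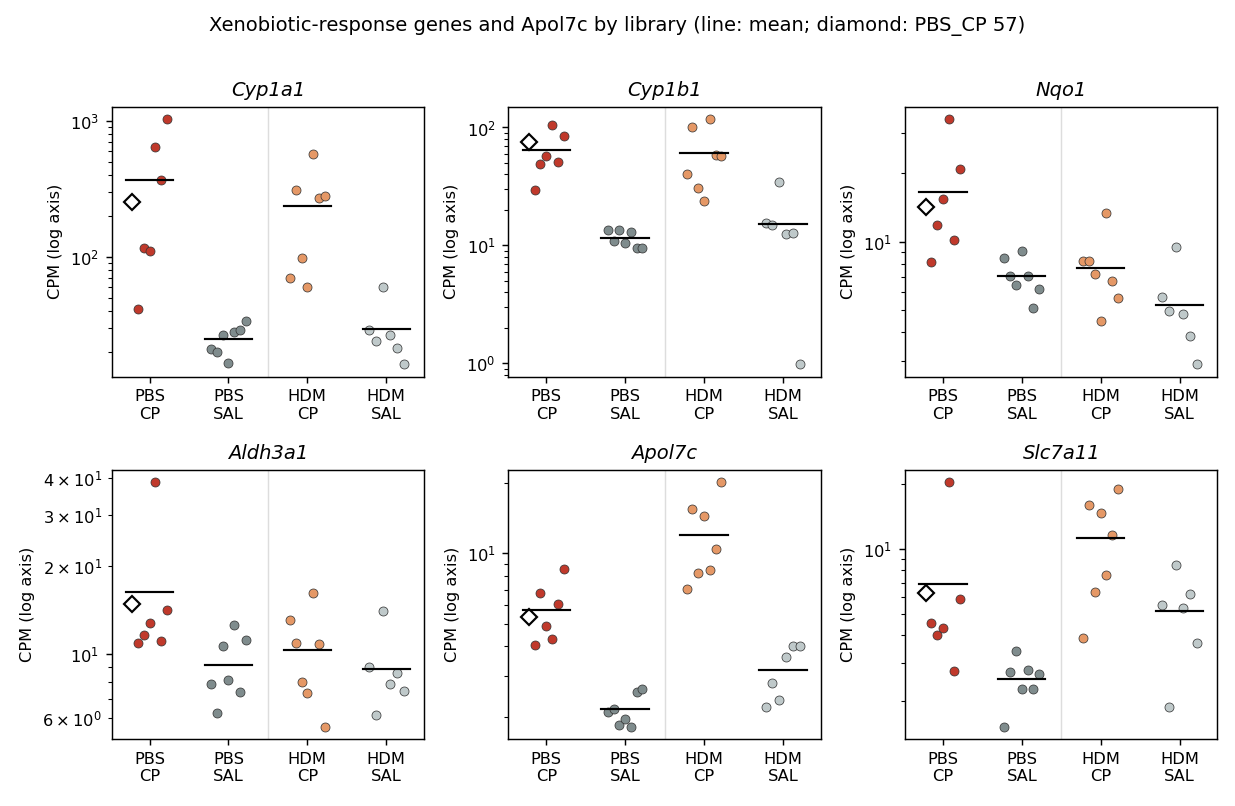
Expression (CPM, log axis) of Cyp1a1, Cyp1b1, Nqo1, Aldh3a1, Apol7c and Slc7a11 in each library, by group, with the group mean as a line and PBS_CP 57 as an open diamond. For Cyp1a1, Cyp1b1 and Apol7c all 7 PBS_CP libraries lie above all 7 PBS_SAL libraries, and for Aldh3a1 and Slc7a11 one PBS_CP library lies far above the rest.

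The start regions of these genes are shown because the paired receptor binds a short core, GCGTG or CACGC on the other strand. The windows hold 250 bases before and 50 after the RefSeq start of each gene, 5′ to 3′ on the gene's strand, on GRCm38.p6, an older build than that of the tables. Cores are in capitals.
Cyp1a1, chr9:57697363-57697662 (plus strand): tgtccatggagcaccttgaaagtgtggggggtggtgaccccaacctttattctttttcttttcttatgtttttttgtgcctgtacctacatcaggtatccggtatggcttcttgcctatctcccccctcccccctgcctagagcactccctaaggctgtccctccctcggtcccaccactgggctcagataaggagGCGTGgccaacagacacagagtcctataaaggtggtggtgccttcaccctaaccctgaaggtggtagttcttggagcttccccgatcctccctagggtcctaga
Cyp1b1, chr17:79715012-79715311 (minus strand): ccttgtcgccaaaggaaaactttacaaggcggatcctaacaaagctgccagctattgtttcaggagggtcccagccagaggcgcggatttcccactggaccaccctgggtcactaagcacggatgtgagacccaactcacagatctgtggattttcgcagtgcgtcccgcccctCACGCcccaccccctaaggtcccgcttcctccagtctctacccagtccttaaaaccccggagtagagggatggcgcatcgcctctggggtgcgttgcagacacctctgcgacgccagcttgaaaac
Nqo1, chr8:107403156-107403455 (minus strand): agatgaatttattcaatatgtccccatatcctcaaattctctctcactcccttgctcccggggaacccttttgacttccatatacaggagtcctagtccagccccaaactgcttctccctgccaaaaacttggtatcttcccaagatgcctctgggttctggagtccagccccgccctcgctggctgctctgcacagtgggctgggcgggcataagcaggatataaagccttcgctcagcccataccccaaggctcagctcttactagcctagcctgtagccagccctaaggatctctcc
Apol7c, chr15:77533266-77533565 (minus strand): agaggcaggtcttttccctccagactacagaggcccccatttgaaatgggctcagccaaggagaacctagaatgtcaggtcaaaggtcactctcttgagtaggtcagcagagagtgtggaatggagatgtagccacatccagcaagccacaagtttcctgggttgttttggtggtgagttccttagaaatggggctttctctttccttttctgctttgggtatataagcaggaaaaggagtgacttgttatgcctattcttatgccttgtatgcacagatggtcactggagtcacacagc
Cyp1a1 held 1 core, at -54 from the start, and Cyp1b1 held 1, at -76, while the windows of Nqo1 and Apol7c held 0. Ahrr held 3 and Tiparp 1. The core was in 7 of the 11 receptor targets with a window (63.6%) and in 32.5% of 27025 promoters of the same length, and a match describes these letters, not a bound site.

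Apol7c (chr15:77409052-77417516, GRCm39) gave the smallest p of the comparison. It belongs to the apolipoprotein L family, whose human member APOL1 is a trypanosome-killing serum protein. Its level was low, with 4.07, 5.34 and 8.55 CPM in the lowest, median and highest PBS_CP library, against 1.81, 2.11 and 2.64 CPM in PBS_SAL, and the groups did not overlap. Apol7c rose by 1.41 ± 0.21 (adjusted p = 0.00831), and by 1.42 ± 0.22 without PBS_CP 57 (adjusted p = 0.0193). The call held when any 1 of the 14 PBS libraries was left out (adjusted p 0.00432 to 0.0456), and was lost on log2(TPM + 1) without a filter (adjusted p = 0.0789). With PBS_CP 57 already out, 0 genes passed when PBS_CP 101 or 102 or PBS_SAL 61, 64, 79, 80 or 81 was left out too, and 1 when PBS_CP 76 or PBS_SAL 104 was. Of 11 tested family members 1 was higher and 0 lower at an unadjusted p under 0.05, with a family median of -0.09 (-0.02 without PBS_CP 57), and the paralogs Apol7a and Apol7b were at 0.35 ± 0.26 and 0.15 ± 0.20. Reads shared among these paralogs cannot be told apart. A list of dendritic cell and MHC class II genes summed to 2147 to 2516 CPM in PBS_CP and 2143 to 2689 CPM in PBS_SAL. That sum does not measure dendritic cells alone, and the part of dendritic cells in the Apol7c values was not tested.

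For several Nrf2 targets PBS_CP 76 again had the highest value. Slc7a11, the cystine importer that feeds glutathione synthesis, had 2.73, 4.57 and 20.4 CPM in the lowest, median and highest PBS_CP library and 1.51, 2.66 and 3.39 CPM in PBS_SAL. Only PBS_CP 101 lay inside the PBS_SAL range. Its fold change of 1.45 ± 0.40 (1.48 ± 0.42 without PBS_CP 57, adjusted p = 0.408 and 0.607) was 0.88 without PBS_CP 76. Gclc, the catalytic subunit of glutamate-cysteine ligase, had medians of 187 CPM in PBS_CP and 144 CPM in PBS_SAL (0.38 ± 0.13), and Txnrd1, a thioredoxin reductase, 107 CPM in PBS_CP and 98.6 CPM in PBS_SAL (0.22 ± 0.07, or 0.13 without PBS_CP 76). Of 23 Nrf2 and glutathione genes 6 were higher and 1 lower at an unadjusted p under 0.05, with and without PBS_CP 57. The others higher were Srxn1, a sulfiredoxin (0.30 ± 0.10), and the NADPH-producing enzymes Me1 (0.27 ± 0.10) and Pgd (0.14 ± 0.06). The 1 lower was Ephx1, the microsomal epoxide hydrolase, with 166 to 211 CPM in PBS_CP and 208 to 262 CPM in PBS_SAL (-0.28 ± 0.09). Gclm, the regulatory partner of Gclc, was at 0.05 ± 0.07, and Hmox1, heme oxygenase 1, at 0.12 ± 0.09. The metallothionein gene Mt1 was at -0.10 ± 0.15. The median of the list was 0.07 with and without PBS_CP 57.

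Sterol synthesis genes had small positive fold changes. These enzymes are switched on together by SREBP2 when membrane cholesterol is low. Of 19 enzymes 19 had positive fold changes between 0.03 and 0.44, where 12485 of all 24629 genes did, and 12 had an unadjusted p under 0.05 (10 without PBS_CP 57), none passing adjustment (edgeR called 0, and DESeq2 called Idi1, adjusted p = 0.0219, but not without PBS_CP 57). Idi1, the isopentenyl diphosphate isomerase, had 44.8, 60.7 and 67.1 CPM in the lowest, median and highest PBS_CP library and 34.7, 41.8 and 48.1 CPM in PBS_SAL. Its fold change was 0.44 ± 0.10, or 0.40 ± 0.10 without PBS_CP 57. Cyp51 (0.40 ± 0.11), Hsd17b7 (0.37 ± 0.12), Sqle (0.36 ± 0.12) and Hmgcs1 (0.30 ± 0.10) followed. Within libraries 66 to 81 the difference of mean log2(CPM + 0.1) was 0.30 for Idi1, 0.28 for Cyp51 and 0.22 for Hsd17b7. It was 0.16 for Sqle and 0.02 for Hmgcs1. There the list summed to 682 and 704 CPM in PBS_CP, and to 695, 621 and 619 CPM in PBS_SAL. Enzymes switched on together are not independent of each other. Among 15 SREBP regulators and other targets 5 were higher at an unadjusted p under 0.05, and 3 without PBS_CP 57. They included Srebf2, which encodes SREBP2 itself (0.13 ± 0.05), the fatty acid elongase gene Elovl6 (0.26 ± 0.11), Insig1, which retains the SREBP complex in the endoplasmic reticulum (0.19 ± 0.09), and Stard4, a sterol carrier gene (0.19 ± 0.09). Within libraries 66 to 81 the same difference was 0.097 for Srebf2, 0.105 for Elovl6, -0.171 for Insig1 and 0.001 for Stard4. The liver X receptor, which drives cholesterol export, had 3 of 8 targets lower and 1 higher at an unadjusted p under 0.05. Abca1, the cholesterol exporter, had a median of 100.4 CPM in PBS_CP and 128 CPM in PBS_SAL (-0.29 ± 0.11), Nr1h3, the receptor gene, was at -0.19 ± 0.08 and Mylip, a ubiquitin ligase gene, at -0.15 ± 0.07, while Lpcat3 was at 0.16 ± 0.07. Without PBS_CP 57 the count was 1 lower, Abca1 (-0.27 ± 0.12), and 0 higher.

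**Figure D3:**
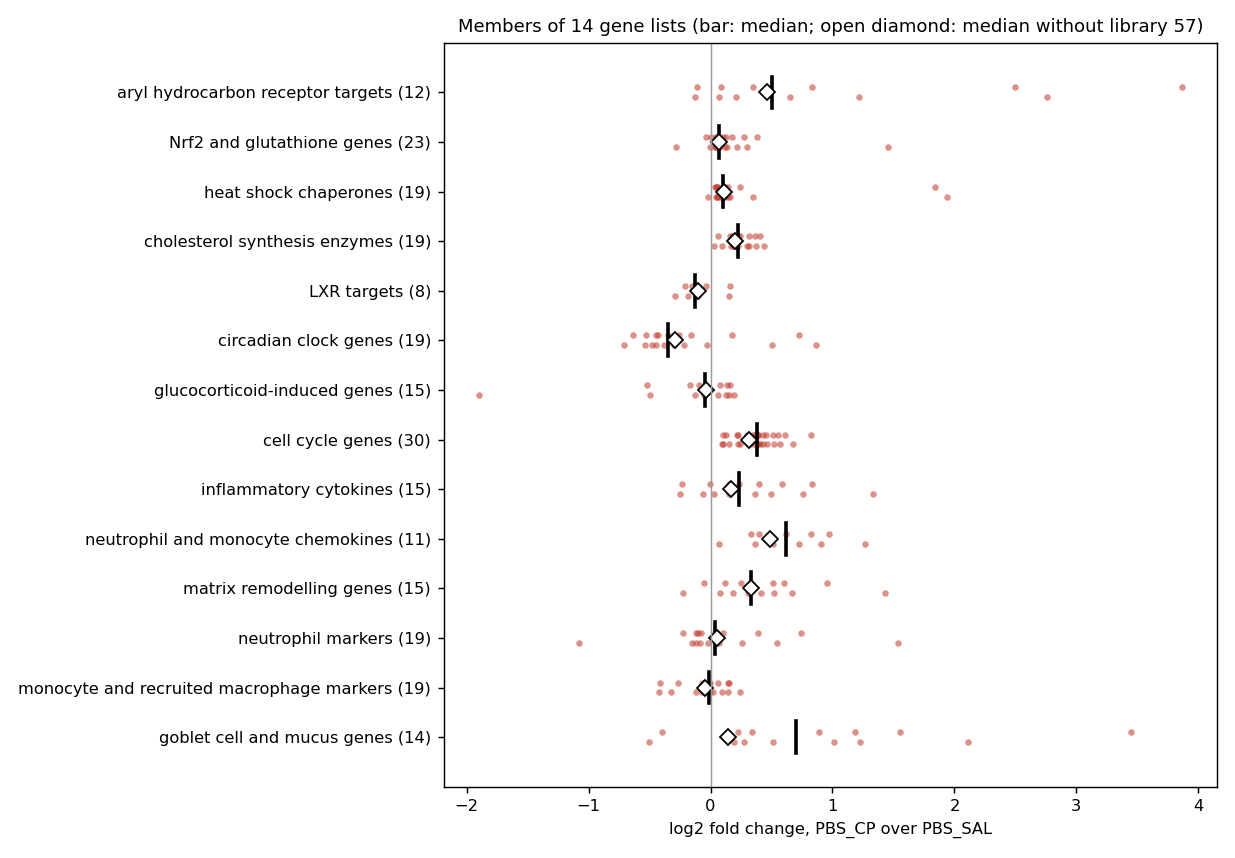
Log2 fold change of PBS_CP over PBS_SAL for every tested member of 14 gene lists (points, with the number of members in brackets), the list median (bar) and the median without PBS_CP 57 (open diamond). The median of the goblet cell and mucus list is 0.70 with PBS_CP 57 and 0.14 without it, and that of the clock list is -0.35 and -0.29.

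Among heat shock genes a pair of paralogs had the largest fold changes. Hspa1a and Hspa1b, near-identical copies of the inducible Hsp70 gene whose reads can be shared, had medians of 88.0 and 78.2 CPM in PBS_CP, against 28.4 and 28.5 CPM in PBS_SAL. Hspa1b reached 293 CPM in PBS_CP 59 and was as low as 17.9 CPM in PBS_CP 101, inside the PBS_SAL range of 15.6 to 67.9 CPM. The fold changes were 1.84 ± 0.55 and 1.94 ± 0.55, or 1.70 ± 0.56 and 1.79 ± 0.57 without PBS_CP 57, and did not pass. Within the 3 runs of library numbers the difference of mean log2(CPM + 0.1) of Hspa1b was 2.58 (libraries 45 to 64), 1.17 (66 to 81) and 0.55 (96 to 105), and the labels do not call these runs batches. Of 19 chaperone genes 3 were higher at an unadjusted p under 0.05, the third being Hsph1 (0.35 ± 0.16), and 2 without PBS_CP 57.

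Glucocorticoid-induced genes were lower in 3 of 15 members at an unadjusted p under 0.05, with and without PBS_CP 57, and 0 were higher. Zbtb16, a zinc finger factor strongly induced by glucocorticoids, had 16.2, 21.8 and 32.2 CPM in the lowest, median and highest PBS_CP library, against 27.2, 88.2 and 143 CPM in PBS_SAL. The groups overlapped through PBS_SAL 105, at 27.2 CPM, which lay below 2 PBS_CP libraries. The fold change was -1.90 ± 0.38, or -1.86 ± 0.40 without PBS_CP 57 (adjusted p = 0.154 and 0.394). Zbtb16 passed without PBS_SAL 105 (adjusted p = 0.0329) and with DESeq2 (adjusted p = 0.00155). Fkbp5, a chaperone that dampens the glucocorticoid receptor, ranged between 13.7 and 18.7 CPM in PBS_CP and between 19.5 and 34.6 CPM in PBS_SAL with no overlap (-0.52 ± 0.13). Map3k6, a stress kinase, was at -0.50 ± 0.14. The list median was -0.05, or -0.04 without PBS_CP 57.

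Among clock genes the negative and the positive arm had fold changes of opposite sign. The loop runs on Arntl (Bmal1) and Clock, which drive the repressors Per, Cry and Ciart through the E-box CACGTG. Of 19 members 12 were lower and 4 higher at an unadjusted p under 0.05, and 8 and 2 without PBS_CP 57. Ciart had 15.6, 18.1 and 25.7 CPM in the lowest, median and highest PBS_CP library, against 21.6, 27.2 and 40.4 CPM in PBS_SAL (-0.54 ± 0.12, or -0.51 ± 0.13 without PBS_CP 57). Dbp, a direct output of the loop, had medians of 105 CPM in PBS_CP and 176 CPM in PBS_SAL (-0.71 ± 0.28), and Per2 62.1 CPM in PBS_CP and 87.1 CPM in PBS_SAL (-0.63 ± 0.21). Per1, which glucocorticoids also induce, was at -0.26 ± 0.28. Arntl had 9.28, 12.1 and 17.0 CPM in PBS_CP and 3.56, 6.64 and 11.4 CPM in PBS_SAL (0.86 ± 0.25, or 0.77 ± 0.26 without PBS_CP 57). The other 3 that were higher were Npas2, a partner of Arntl (0.72 ± 0.28), Nfil3, a repressor of the Dbp class (0.51 ± 0.20), and Clock (0.18 ± 0.08). DESeq2 called Ciart (adjusted p = 0.0164), but not without PBS_CP 57. Across the 3 runs of library numbers the difference of mean log2(CPM + 0.1) of Arntl was 1.00, 1.15 and 0.10, that of Dbp -0.94, -0.99 and -0.10 and that of Per2 -0.82, -0.78 and 0.07, with the smallest sizes in the last run (libraries 96 to 105). That run holds 2 PBS_CP and 2 PBS_SAL libraries, and both PBS_SAL ones had under 60 M counts. Zbtb16 differed in all 3 runs, by -2.11, -1.86 and -1.42. The labels do not state the time of day of collection, and its part in these values was not tested.

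**Figure D4:**
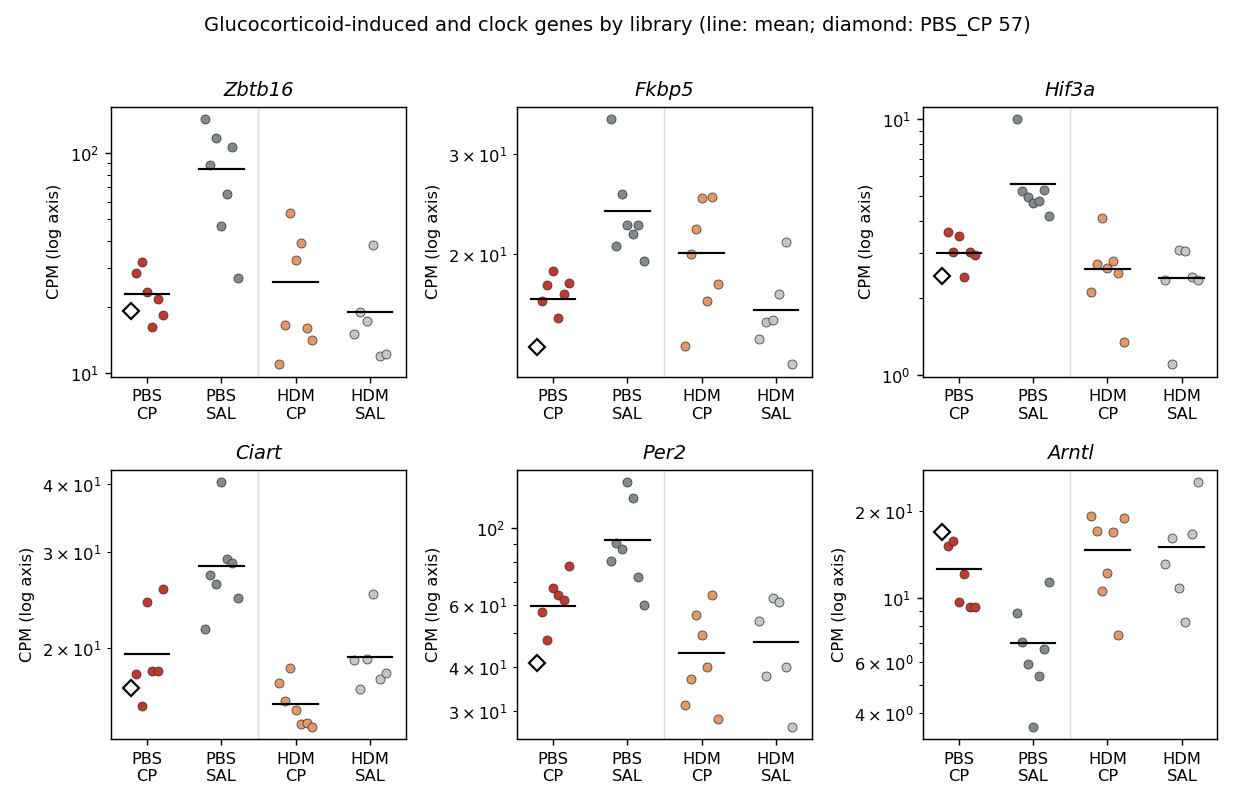
Expression (CPM, log axis) of the glucocorticoid-induced genes Zbtb16 and Fkbp5, of Hif3a and of the clock genes Ciart, Per2 and Arntl in each library, by group, with the group mean as a line and PBS_CP 57 as an open diamond. Fkbp5 and Hif3a separate PBS_CP from PBS_SAL completely, while the HDM groups overlap for all 6 genes.

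Ciart is shown for its window on the same older build (E-boxes in capitals, both strands read alike), since it held 3 of them, at -116, -58 and -44 from its start.
Ciart, chr3:95882179-95882478 (minus strand): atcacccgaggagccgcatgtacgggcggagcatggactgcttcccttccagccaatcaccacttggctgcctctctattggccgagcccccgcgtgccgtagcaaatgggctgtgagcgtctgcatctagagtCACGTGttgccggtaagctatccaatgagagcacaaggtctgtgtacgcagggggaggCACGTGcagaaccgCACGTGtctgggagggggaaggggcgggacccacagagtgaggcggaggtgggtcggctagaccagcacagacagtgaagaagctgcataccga
E-boxes were in 5 of the 16 clock genes with a window (31.2%) and in 7.24% of all promoters of that length. Of the other motifs searched on both strands, the antioxidant response element was in 12 of 18 Nrf2 and glutathione genes (66.7%, against 41.4% of all promoters). The heat shock element was in 3 of 14 chaperone genes (21.4%, against 0.529%), though not in the windows of Hspa1a and Hspa1b. The sterol regulatory element was in 0 of 14 cholesterol synthesis enzymes, Idi1 included (0%, against 0.244%). Each motif was matched only as a fixed pattern of letters, so a window without a match may still hold a variant form. At a background of 0.244%, 0 of 14 cannot tell this list from all promoters.

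Several inflammatory genes had positive fold changes at low levels. Il6 had 0.161, 1.30 and 2.18 CPM in the lowest, median and highest PBS_CP library and 0.204, 0.365 and 0.991 CPM in PBS_SAL, so the groups overlapped (1.34 ± 0.47, or 1.25 ± 0.49 without PBS_CP 57). Ptgs2, the inducible prostaglandin synthase gene, had medians of 30.3 CPM in PBS_CP and 16.5 CPM in PBS_SAL (0.76 ± 0.23), and PBS_SAL 80, at 34.0 CPM, lay among the PBS_CP libraries. Of 15 inflammatory cytokine genes 5 were higher and 0 lower at an unadjusted p under 0.05 (4 and 0 without PBS_CP 57), the others being the interleukin 6 relatives Osm (0.49 ± 0.19) and Lif (0.59 ± 0.25) and the epithelial cytokine Il36g (0.83 ± 0.36). Il1b was at 0.15 ± 0.27. Of 11 chemokine genes 4 were higher with and without PBS_CP 57, and all 11 fold changes were positive with a median of 0.62 (0.49 without PBS_CP 57). They were Cxcl15, the lung epithelial chemokine, with medians of 979 CPM in PBS_CP and 798 CPM in PBS_SAL (0.40 ± 0.10), Ccl7 (0.97 ± 0.37), Cxcl2 (1.27 ± 0.55) and Ccl4 (0.62 ± 0.27). Cxcl1 (0.36 ± 0.31), Ccl2 (0.52 ± 0.41) and Cxcl5 (0.83 ± 0.58) had p above 0.05. Within libraries 66 to 81 the difference of mean log2(CPM + 0.1) was -0.78 for Cxcl1, -0.11 for Ccl2 and -0.02 for Ccl7. It was 0.83 there for Ccl4, 0.82 for Cxcl5, 0.59 for Cxcl15 and 0.34 for Cxcl2. For Cxcl5 it was -0.07 within libraries 96 to 105. Ccl22, a dendritic cell chemokine that draws regulatory and type 2 T cells, had 8.27, 13.2 and 14.7 CPM in PBS_CP and 6.30, 8.10 and 8.89 CPM in PBS_SAL (0.70 ± 0.19, or 0.73 ± 0.20 without PBS_CP 57). Its relative Ccl17 had 3.77 to 7.37 CPM in PBS_CP and 1.34 to 3.59 CPM in PBS_SAL with no overlap, at 0.72 ± 0.42.

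In the acute phase and epithelial antimicrobial list 3 of 15 genes were higher at an unadjusted p under 0.05, Cp, or ceruloplasmin (0.34 ± 0.12), Lrg1 (0.55 ± 0.24) and Steap4 (0.36 ± 0.17), and 1 without PBS_CP 57. The neutrophil-associated Lcn2 had medians of 94.1 CPM in PBS_CP and 55.6 CPM in PBS_SAL (0.57 ± 0.33) and Saa3, a serum amyloid A, 7.63 CPM in PBS_CP and 3.15 CPM in PBS_SAL (0.29 ± 0.74). Marker genes of incoming cells were counted the same way. Of 19 neutrophil genes 0 had an unadjusted p under 0.05, their sum ranged between 167 and 244 CPM in PBS_CP and between 151 and 228 CPM in PBS_SAL, and S100a8 was at -0.08 ± 0.31. Of 19 monocyte and recruited macrophage genes 0 did (sums of 622 to 738 CPM in PBS_CP and 575 to 971 CPM in PBS_SAL), with Cd68 at 0.00 ± 0.17 and Gpnmb at -0.32 ± 0.42. The alveolar macrophage list had 0 of 12. The neutrophil granule genes Elane, Mpo and Camp did not pass the filter on low counts.

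All 30 cell cycle genes gave fold changes above 0, where 12485 of all 24629 genes did, and their median was 0.38 (0.32 without PBS_CP 57). An unadjusted p under 0.05 was found for 5 of them with PBS_CP 57, and for 5 without it, where Tk1, thymidine kinase, was counted and Kif23 was not. With all 14 libraries these were Cdk1, the mitotic kinase, with medians of 4.86 CPM in PBS_CP and 2.75 CPM in PBS_SAL (0.82 ± 0.25), and the spindle genes Kif20a (0.68 ± 0.24), Bub1 (0.57 ± 0.21), Tpx2 (0.61 ± 0.24) and Kif23 (0.38 ± 0.17). The proliferation marker Mki67 was at 0.52 ± 0.26. Across the 3 runs of library numbers its difference of mean log2(CPM + 0.1) was 0.70 (libraries 45 to 64), 0.01 (66 to 81) and 0.73 (96 to 105). In libraries 66 to 81 that difference was 0.32 for Cdk1, 0.14 for Kif20a, 0.42 for Bub1, 0.10 for Tpx2 and 0.17 for Kif23. There the list summed to 231 and 266 CPM in PBS_CP, and to 313, 222 and 225 CPM in PBS_SAL. These genes are expressed together in dividing cells and are not independent of each other. Of 15 matrix remodelling genes 6 were higher at an unadjusted p under 0.05 and 3 without PBS_CP 57. Has2, a hyaluronan synthase, had 0.194, 0.603 and 0.848 CPM in PBS_CP and 0.121, 0.183 and 0.348 CPM in PBS_SAL (1.43 ± 0.35), and Adamts9, a versican-cleaving protease, ranged between 46.7 and 64.3 CPM in PBS_CP and between 28.8 and 45.8 CPM in PBS_SAL without overlap (0.51 ± 0.12). The others were Adamts4 (0.95 ± 0.34), Vcan, the versican gene (0.34 ± 0.16), Timp1 (0.61 ± 0.29) and Has1 (0.52 ± 0.25).

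Genes whose groups did not overlap included others with small fold changes, of which the 10 with the largest fold change in each direction are named. On the higher side, beside Cyp1a1, Cyp1b1, Apol7c, Ccl17 and Adamts9, were Klk13, a kallikrein-related peptidase (0.94 ± 0.25), Lad1, the anchoring filament gene ladinin (0.36 ± 0.13), Azin1, an antizyme inhibitor that spares ornithine decarboxylase (0.28 ± 0.07), Gstt3, a glutathione transferase (0.20 ± 0.08), and Dpp9, a dipeptidyl peptidase (0.19 ± 0.05). On the lower side Hif3a, a hypoxia-inducible factor subunit, had 2.41, 3.01 and 3.62 CPM in PBS_CP, against 4.17, 4.96 and 10.0 CPM in PBS_SAL (-0.90 ± 0.21), and DESeq2 called it (adjusted p = 0.0219), but not without PBS_CP 57. Xdh, xanthine dehydrogenase, had 399 to 462 CPM in PBS_CP and 465 to 652 CPM in PBS_SAL (-0.35 ± 0.09). Tox2 (-0.42 ± 0.09), Pik3ip1, an inhibitor of phosphoinositide 3-kinase (-0.35 ± 0.08), Chac1, a glutathione-degrading enzyme (-0.54 ± 0.15), and Cys1, a ciliary membrane protein gene (-0.65 ± 0.19), were also lower. So were Fam162b (-0.46 ± 0.14), Prrt4 (-0.34 ± 0.10), Mir142hg (-0.35 ± 0.13) and Fkbp5.

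Several goblet cell and immunoglobulin genes rested on 1 or 2 libraries. Of 14 goblet cell and mucus genes 5 were higher at an unadjusted p under 0.05 with PBS_CP 57 and 1 without it, and the median was 0.70 and 0.14. Clca1 was at 3.45 ± 1.08 with and 0.01 ± 0.62 without PBS_CP 57, Muc5ac at 2.11 ± 0.81 and 0.37 ± 0.63, Muc5b at 1.22 ± 0.60 and 0.52 ± 0.54, Slc26a4 at 1.01 ± 0.46 and 0.31 ± 0.36, and Creb3l1 at 0.27 ± 0.12 and 0.25 ± 0.12. Pigr, which carries IgA across the airway epithelium, was the 1 member counted without it, with 49.8 to 69.0 CPM in the 6 other PBS_CP libraries and 23.4 to 64.7 CPM in PBS_SAL (0.62 ± 0.28 without PBS_CP 57). Retnla was at 2.11 ± 0.59 with and 0.78 ± 0.36 without PBS_CP 57, Chil4, a chitinase-like gene, at 1.68 ± 0.86 and -0.23 ± 0.68, Ccl8 at 0.13 ± 0.48 and -0.29 ± 0.47, and Il13 at 1.35 ± 0.86 and 1.34 ± 0.91. Of 12 immunoglobulin and plasma cell genes 2 were lower, Ighg2b (-3.45 ± 0.99) and Ighg2c (-4.56 ± 1.40), with and without PBS_CP 57. Ighg2b ranged between 1.12 and 5.34 CPM in PBS_CP, while PBS_SAL 105 had 103 CPM, PBS_SAL 81 had 79.1 CPM and the other PBS_SAL libraries had 1.05 to 3.31 CPM. Ighg2c had 223 CPM in PBS_SAL 105 and a PBS_SAL median of 1.47 CPM, and its fold change was -1.55 without PBS_SAL 105. Type I interferon genes had 0 of 22 and cytotoxic and interferon gamma genes 0 of 22 members with an unadjusted p under 0.05.

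The same dose in HDM mice was compared through the means of other libraries. Both contrasts came from the fit of all 27 libraries and shared its estimate of spread, so their p-values are not independent. At an unadjusted p under 0.05, 1405 genes were higher in HDM_CP (5.7%) and 983 lower (3.99%), 2388 in all (9.7%). Of the 12 receptor targets 4 were higher and 1 lower in HDM mice (median 0.19), where PBS mice had 6 and 0. Of 18 airway xenobiotic enzyme and club cell genes 0 were higher and 7 lower in HDM mice (median -0.28), and 0 and 1 in PBS mice (median -0.02). Their sum ranged between 13500 and 36820 CPM in HDM_CP and between 23050 and 45370 CPM in HDM_SAL, so the HDM groups overlapped. HDM_SAL 54 (45370 CPM) and HDM_SAL 50 (37570 CPM) were highest, as they were for multiciliated cell genes (1368 and 1055 CPM). After adjustment 1 gene rose (0.00406%) and 0 fell. It was Apol7c, with 7.03, 10.5 and 20.2 CPM in the lowest, median and highest HDM_CP library and 2.21, 3.21 and 4.03 CPM in HDM_SAL (1.92 ± 0.22, adjusted p = 5.88e-05). The number was 146 without HDM_CP 45, 46 without HDM_CP 96, 14 without HDM_CP 66, 17 without HDM_SAL 99, 2 without HDM_SAL 72, PBS_CP 59, 76 or 101 or PBS_SAL 105, and 1 without any other library. Cyp1a1 was at 3.00 ± 0.64 in HDM mice (adjusted p = 0.113) and 3.87 ± 0.62 in PBS mice, a difference of -0.87 ± 0.81, and Cyp1b1 at 2.01 ± 0.47 in HDM mice and 2.49 ± 0.45 in PBS mice, a difference of -0.48 ± 0.62. The interaction test found 0 of 24629 genes (0%) whose response differed between HDM and PBS mice at an adjusted p under 0.05, 1571 at an unadjusted p under 0.05 (6.38%) and 6 with DESeq2. Without PBS_CP 57 it found 0, 1285 (5.23%) and 2. The 6 were Zbtb16, Fkbp5, Ighg1, Ighg2b, Ank and the predicted gene Gm21983, and the 2 were Ank and Gm21983, all named after their values were seen.

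Zbtb16 was at 0.46 ± 0.38 in HDM mice and -1.90 ± 0.38 in PBS mice (interaction 2.36 ± 0.54, adjusted p = 0.694), and HDM_CP, with a median of 16.5 CPM, and HDM_SAL, with 16.2 CPM, both lay at the level of PBS_CP. Fkbp5 was at 0.33 ± 0.14 in HDM mice (interaction 0.85 ± 0.19), Hspa1b at -0.64 ± 0.55 (interaction -2.58 ± 0.78) and Arntl at -0.04 ± 0.26 (interaction -0.90 ± 0.36), with adjusted p of 0.694 or more. Neutrophil genes had 11 of 19 members higher at an unadjusted p under 0.05 in HDM mice (background 5.7%), where PBS mice had 0, and 10 of 19 had an interaction at an unadjusted p under 0.05. For monocyte and recruited macrophage genes 14 of 19 were higher in HDM mice, 0 in PBS mice, and 10 had such an interaction. Their sum ranged between 859 and 2225 CPM in HDM_CP and between 722 and 1167 CPM in HDM_SAL. Only HDM_CP 49 (1562 CPM), 67 (1605 CPM) and 98 (2225 CPM) lay above the HDM_SAL range. Members of such a list are not independent of each other. Gpnmb, a gene of lipid-laden macrophages, was at 2.21 ± 0.46 in HDM mice and -0.32 ± 0.42 in PBS mice (interaction 2.53 ± 0.61, adjusted p = 0.694). Of the 1343 genes with an unadjusted p under 0.05 in PBS mice, 799 had the same sign in HDM mice (59.5%), and 675 of 1087 without PBS_CP 57 (62.1%), against 51.2% of all genes tested.

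**Figure D5:**
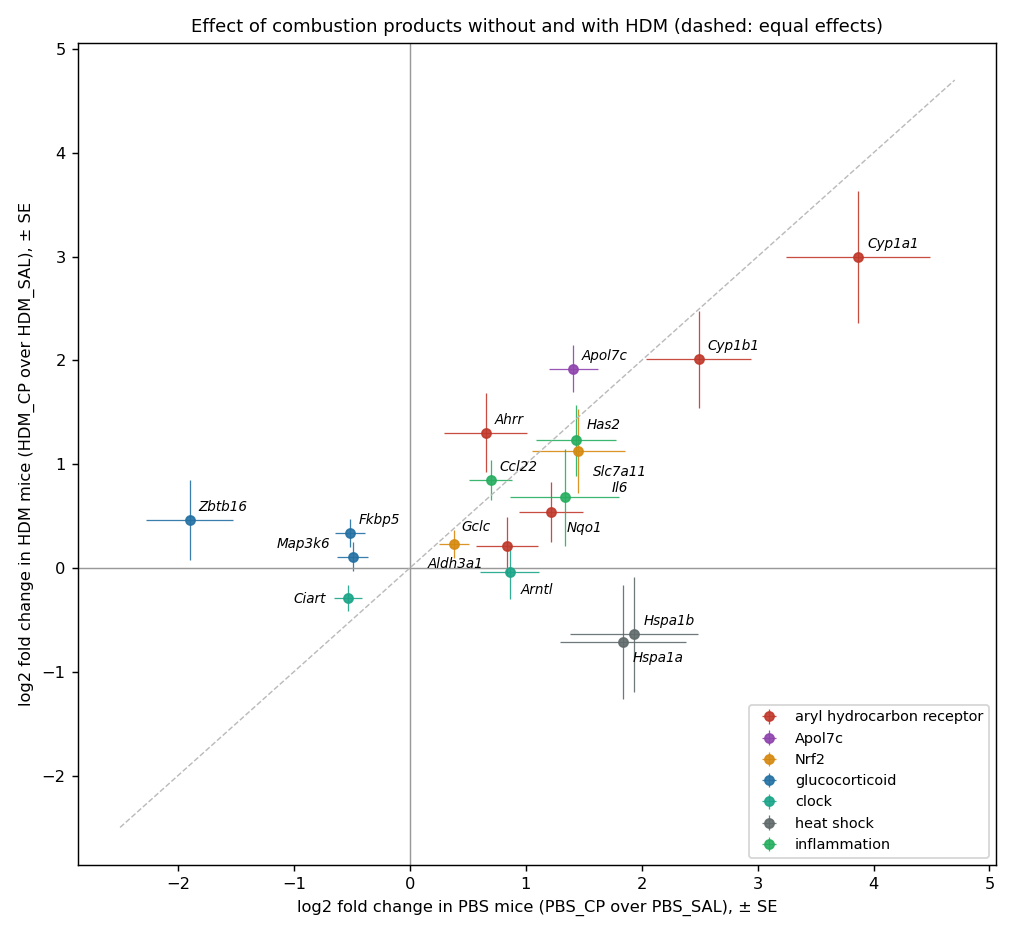
Log2 fold change (± SE) of combustion products over saline in HDM mice (vertical) against PBS mice (horizontal) for genes of 7 roles, with the line of equal effects dashed. Cyp1a1, Cyp1b1 and Apol7c lie in the upper right near the line, while Zbtb16 and Fkbp5 (lower in PBS_CP) and Hspa1a and Hspa1b (higher in PBS_CP) have the opposite sign in HDM mice.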

How the data were processed

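Whole-lung polyA RNA was sequenced in paired reads of 150 bases, and 20 M pairs (M, mega) were planned for each library, per the labels' protocols. The authors deposited estimated counts and TPM for 56941 genes and 27 libraries, and the submitters' processing notes name STAR, StringTie 2 and GRCm39. The deposited estimated counts sum to about 4 times the planned pairs, so they were read as estimates, and they were rounded to whole numbers. The deposited TPM values were scaled by the authors to a fixed sum per library and keep no depth. Genes listed by identifier only (310) held 0.060% of the counts and were kept. The sources used here do not give strand use in counting, so overlapping genes and paralogs can share reads.

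In R 4.3.3, edgeR 4.0.16 (filterByExpr with a minimum count of 10, trimmed mean of M values, 4 group means over all 27 libraries, robust quasi-likelihood F tests, two-sided) gave fold changes and Benjamini-Hochberg adjusted p-values over all genes tested, with a threshold of 0.05. The test gives no standard error. Those printed with its fold changes were derived as the absolute log2 fold change divided by the square root of F. The fit was repeated without PBS_CP 57. CPM are the counts scaled by these library sizes, and mean log2 CPM used a prior count of 2. The labels list each library as a separate mouse lung. P-values measure the spread between these libraries, which may be technical. The script was checked on simulated data. Library totals and shares were compared by exact permutation tests, whose smallest p at 7 against 7 is 0.000583.

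The members and the gene lists were chosen with earlier results of these data known. Named are genes called with or without PBS_CP 57, the 10 largest fold changes in each direction among genes whose groups do not overlap (mean log2 CPM of at least 1, without predicted genes and variable immunoglobulin or T cell receptor segments), a set of genes listed by hand, and up to 3 members of each list with the smallest p, with those needed to account for small counts. Alternatives were other scaling factors, no filter, a minimum count of 50, DESeq2 1.42.0, limma 3.58.1 (voom with quality weights, log2 of TPM plus 1 or 0.1 where the mean TPM reached 0.5, and log2 of TPM plus 1 unfiltered), only the groups compared, runs of library numbers as a block, counts divided by 4, and leaving out libraries. Those for groups that do not overlap and for library totals were chosen after seeing the data. Some members of the lists are counted but not reported here by name.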

Additional observations from a re-analysis of the deposited data

Results flagged for a closer look

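A library was singled out where its gap to the nearest other library was large for the spread of its group (Dixon's test, 95% level). Chance gives that in about 1 of 20 groups of normally distributed values. CPM were used without a log, so this rate may not hold here. Of 232 values examined over 113 genes and the library totals and shares, 45 were singled out. PBS_CP 57 held 10 of them, and PBS_CP 76 held more.

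In PBS_CP 57 the highest values of the group were those of Clca1 (515.1 CPM), Muc5ac (42.6 CPM), Muc5b (89.3 CPM), Slc26a4 (28.7 CPM), Pigr (149.9 CPM), Retnla (1288 CPM), Chil4 (59.5 CPM), Ccl17 (7.37 CPM), Ccl8 (4.64 CPM) and Cxcl5 (1.65 CPM). Mucus and type 2 response genes make up most of this set. The genes examined were chosen with earlier results of these data known, so the make-up of the set is no test of this library.

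PBS_CP 76 stood above its group for xenobiotic and glutathione genes. These were Aldh3a1 (38.9 CPM), Ugt1a6a (68.8 CPM), Slc7a11 (20.4 CPM), Srxn1 (40.3 CPM), Txnrd1 (155.4 CPM), Gclc (266.6 CPM), Gclm (62.8 CPM) and Pgd (159.0 CPM). Adamts9 (64.3 CPM), Il36g (8.43 CPM) and Ighg2c (6.41 CPM) were highest there too.

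PBS_CP 102 had the highest ribosomal RNA share (0.369%) and Apol7a level (1.49 CPM) and the lowest Has1 level (1.17 CPM) of its group. Other PBS_CP libraries stood highest for 1 gene each, PBS_CP 58 for Cxcl2 (3.24 CPM), PBS_CP 59 for Il1b (22.9 CPM) and PBS_CP 75 for Nr1h3 (51.1 CPM).

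Among saline libraries, PBS_SAL 105 was highest for Ighg2c (222.7 CPM), Gpnmb (63.6 CPM), Muc5b (36.6 CPM), Nfil3 (6.80 CPM) and Adamts4 (2.71 CPM). PBS_SAL 104 was highest for Saa3 (39.1 CPM), Timp1 (10.5 CPM) and Ccl2 (2.18 CPM) and lowest for Il1b (5.75 CPM). PBS_SAL 80 was highest for Per1 (300.5 CPM), Ciart (40.4 CPM), Ptgs2 (34.0 CPM), Has1 (2.11 CPM) and Il6 (0.991 CPM), PBS_SAL 61 for Fkbp5 (34.6 CPM) and Hif3a (10.0 CPM), and PBS_SAL 79 for Azin1 (119.1 CPM) and Me1 (75.2 CPM).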

How the results depend on the processing

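Scaling factors left the 2 calls in place, while the test and the libraries moved the counts of genes called. In PBS mice the count was 1 with no filter on low counts, 32 with DESeq2 (13 higher, 19 lower), 10 with limma voom (1 higher, 9 lower, Cyp1a1 not among them), 4 with only the 2 groups compared, 4 on log2(TPM + 0.1) and 1 on log2(TPM + 1) without a filter. Without PBS_CP 57 it was 1 with no filter, 19 with DESeq2, 0 with voom, 1 with a block for runs of library numbers, 1 on log2(TPM + 1), 0 on log2(TPM + 1) without a filter and 0 without the 3 libraries under 60 M. In HDM mice it was 192 with DESeq2, 3 with voom, 2 with the block, 2 on log2(TPM + 1) with or without a filter, 5 with counts divided by 4 and 4 without the 3 libraries, and DESeq2 called 6 interactions. The cause was not tested. No paired analysis was possible because no replicate number is shared between groups.

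Leaving out 1 library gave 1 to 5 calls in PBS mice, 0 to 3 with PBS_CP 57 already out, 1 to 146 in HDM mice and 0 to 1 interactions. Genes whose groups did not overlap numbered 58 to 114, and 340 without the 3 libraries under 60 M, where fewer samples make separation easier. Differences in total count then ranged between -2.29 and 1.88 M, in mitochondrial share between 0.0383 and 0.152 and in ribosomal RNA share between 0.00348 and 0.0483 percentage points.

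Most list medians kept their place. That of the receptor targets was 0.253 on log2(TPM + 0.1), 0.245 on log2(TPM + 1) with or without a filter and 0.35 at a minimum count of 50 (without PBS_CP 57, 0.268 and 0.258 on the TPM scales), and 0.326 to 0.611 (0.289 to 0.576) with 1 library left out. The goblet cell median was 0.39 on log2(TPM + 1), 0.327 there without a filter, 0.953 at a minimum count of 50, 0.95 with only the 2 groups, 1.324 without the 3 libraries (0.43 without PBS_CP 57) and 0.145 to 1.094 (0.081 to 0.371) with 1 library left out. Chemokines were at 0.31 on log2(TPM + 1) with or without a filter, type 2 cytokines at 0.249 with the block and at -0.012 to 0.256 (-0.045 to 0.11) with 1 library left out. Without the 3 libraries, liver X receptor targets were at -0.057 (-0.039 without PBS_CP 57) and adipose genes at 0.573 (0.7). Without PBS_CP 57 as well, metallothioneins were at 0.157, inflammatory cytokines at 0.255, acute phase genes at 0.748 and heart muscle genes at -0.146. With 1 library left out the receptor machinery was at -0.044 to 0.011 (-0.033 to 0.036 without PBS_CP 57), liver X receptor targets at -0.154 to -0.099 (-0.131 to -0.072), glucocorticoid genes at -0.091 to 0.107 (-0.07 to 0.096), eosinophil markers at -0.173 to 0.043 (-0.096 to 0.088), T cell markers at -0.171 to 0.077 (-0.102 to 0.11) and heart muscle genes at -0.142 to 0.502 (-0.192 to 0.512). The apolipoprotein L median was 0.222 with voom without PBS_CP 57.

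Cd68 took the opposite sign with no filter (0.002), voom (0.069), the block (0.01), log2(TPM + 1) (0.038, also unfiltered), log2(TPM + 0.1) (0.04), counts divided by 4 (0.002) and without the 3 libraries (0.181), and Gpnmb without the 3 libraries (0.108). With 1 library left out, the sign also depended on that library for Ahr (-0.053 to 0.031), Ccl8 (-0.293 to 0.368), Cd68 (-0.093 to 0.105), Chil4 (-0.228 to 1.871), Gclm (-0.028 to 0.075), Gpnmb (-0.466 to 0.041), Il1b (-0.048 to 0.227), S100a8 (-0.205 to 0.071) and Saa3 (-0.086 to 1.661). Genes under about 1 CPM, such as Cyp1a2 and Il13, rest on few counts.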
